A study of Homo sapiens with 20 samples.

Results

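The comparison set the WM793 line carrying wild-type NME1 (NME1-wild-type, 4 arrays) against the line carrying the NME1-P96S mutant (4 arrays), 8 of the 20 arrays of the series, chosen by their titles. WM793 is an established human melanoma line, labelled as vertical growth phase. The parental line (Parent) and lines carrying overexpression constructs of NME1-E5A or NME1-K12Q have 4 arrays each. Both lines compared here carry an NME1 overexpression construct in the same WM793 background, and all 5 lines were grown for 3 days without a stated treatment. The promoter of the construct, and whether each line is a clone or a pool, are not given in the sources used here. Total RNA was hybridised to Affymetrix Human Exon 1.0 ST arrays. The 4 arrays of a line are described by the submitters as technical replicates, so there is 1 line per construct, every p-value below measures only the spread between arrays, and the mutation cannot be told apart from any other difference between the 2 lines. The number of arrays limits the precision.

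NME1, also called NM23-H1, is a nucleoside diphosphate kinase that passes the terminal phosphate of a nucleoside triphosphate to a diphosphate through a histidine in its active site. It was the earliest gene described as a metastasis suppressor, from work on melanoma. The protein is also reported to transfer phosphate from histidine to other proteins and to act as an exonuclease on DNA. P96S corresponds to the fly Killer of prune allele and is reported to impair the transfer to proteins, whereas E5A and K12Q were made to separate the exonuclease and kinase activities.

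Values are log2 expression, robust multi-array averaged by the authors, and every difference is NME1-P96S minus NME1-wild-type. The limma fit covered 18384 features, of which 14411 are genes with 1 symbol and the rest are rows annotated to several genes or to none. A feature was called where its Benjamini-Hochberg adjusted p was under 0.05 and the lines differed by 1.5-fold or more. All adjusted p-values below come from limma over all features. Array medians lay between 6.27 and 6.50. The interquartile range was 2.65 to 2.87 on the NME1-wild-type arrays, and on NME1-P96S arrays 1 to 4 it was 3.12, 3.16, 2.33 and 2.82. Pearson correlations over all rows were 0.983 to 0.995 within NME1-wild-type, 0.930 to 0.992 within NME1-P96S and 0.961 to 0.995 between the lines. NME1-P96S array 4 thus correlated as highly with an NME1-wild-type array as any pair of one line did, and NME1-P96S array 3 stood apart by its narrow range. The part of array spread in the counts was not tested beyond repeating the fit under other settings. There were 75 calls with the interquartile range as a covariate, 35 with equal medians and interquartile ranges and 160 with array weights. Without NME1-P96S array 3 there were 43 calls, and without array 4 there were 19.

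Of the 18384 features, 37 (0.201%) were called, 13 (0.0707%) higher and 24 (0.131%) lower in NME1-P96S. The 26 called features with 1 symbol were 8 higher and 18 lower. Counts of called list members below are to be read beside the 0.201% of all features called. The genes lower in the mutant line included TRIML2, SLC7A11, EREG, NETO2, THY1, SPP1 and RARB, and rows of the XAGE1 cancer-testis genes. The largest differences upward were a row shared by HLA-DMA and HLA-DMB and 2 rows of SSX cancer-testis genes. Folds ran from 1.5 to 3.76. Before adjustment, 623 features (3.39%) had a p under 0.05, 321 higher (1.75%) and 302 lower (1.64%). The 2 sets of 4 arrays did not overlap in 336 features (1.83%), 168 in each direction (0.914% each), and in all 37 called ones. The median difference of all features was −0.04, with quartiles of −0.14 and 0.06, and 38.7% were above 0. The call count fell to 18 without NME1-wild-type array 1 or array 2, to 24 without its array 3 and to 20 without NME1-P96S array 2. Of the 37 calls, 17 held without any 1 of the 8 arrays, and 11 held when only these 8 arrays were fitted: TRIML2, SLC7A11, EREG, NETO2, 4 XAGE1 rows, both SSX rows and the row of HLA-DMA and HLA-DMB. Median centring ended the calls of CXCL11, TM4SF18, IFI6, MET, INHBA, SPRY1, PCSK5, SLC24A2, C3 and SEMA6D, and quantile normalisation those of CXCL11, RARB, MMP3, MET, PCSK5, SLC24A2 and SEMA6D. The deposited values hold no measure of background. Of the 37 calls, 5 had a mean under 6 in both lines (LRP1B, COLEC12, MET and both SSX rows), so their low readings may not be above background and the size of the difference is less sure. The other 32 were called with such features left out. In the 20 alternatives every called feature that was tested kept its direction.

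**Figure D1:**
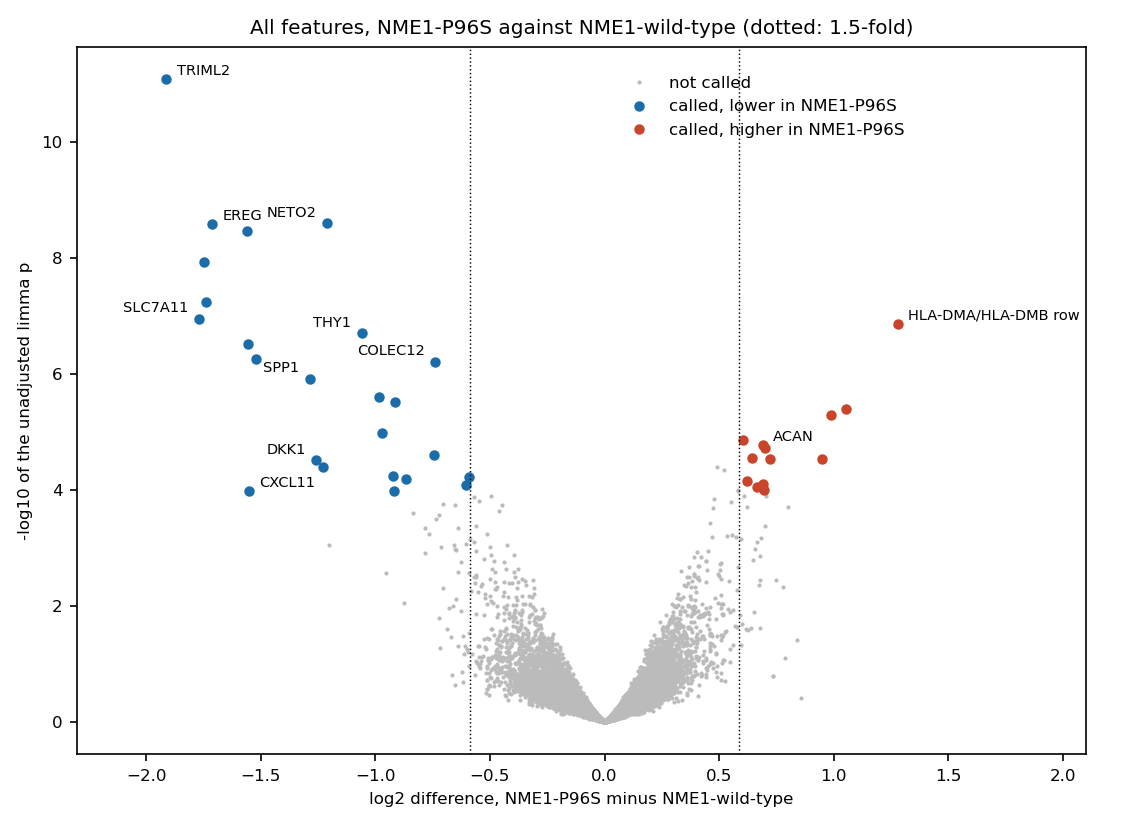
Each point is 1 of 18384 features, placed by its log2 difference (NME1-P96S minus NME1-wild-type) and −log10 of the unadjusted limma p, with dotted lines at 1.5-fold. The 24 called features on the left reach −1.91 for TRIML2, and the 13 on the right reach 1.28 for the row of HLA-DMA and HLA-DMB.

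NME1 itself is covered by row 3726934, annotated to NME1 together with the NME1-NME2 readthrough. It read 9.81, 9.86, 9.83 and 9.75 on the NME1-wild-type arrays and 9.63, 9.87, 9.86 and 9.76 on the NME1-P96S arrays. The 2 lines overlapped, with means of 9.81 ± 0.0486 and 9.78 ± 0.110 (SD, n = 4 each). The difference was −0.03 (95% interval −0.28 to 0.22, limma adjusted p = 0.999, exact two-sided permutation p = 0.686), and 0.0286 is the smallest p that 4 against 4 arrays allow. The Parent mean was 9.53, and NME1-E5A and NME1-K12Q stood at 9.78 and 9.75, so the means of the 4 construct lines were above that of the parental line. Single arrays overlapped: Parent reached 9.75, NME1-P96S array 1 read 9.63 and the lowest NME1-K12Q array 9.45. In the limma fit NME1-wild-type exceeded Parent by 0.28 (adjusted p = 0.997) and NME1-P96S exceeded it by 0.25 (adjusted p = 0.85), neither called. A row cannot show which NME1 allele its RNA came from. The row of NME2, the closest paralogue, differed by −0.09 (exact permutation p = 0.371). None of the other 6 family members with a row of their own (0 of 6) was called: NME3 differed by −0.20, NME5 by −0.17, NME6 by −0.16, NME9 by −0.15, NME4 by −0.10 and NME8 by −0.06.

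The other 3 lines give the setting of each call. NME1-P96S had the lowest mean of the 5 lines for 20 of the 24 features lower in it, and NME1-wild-type had the highest for 16 of them. Both held for 13. Among the 13 higher features NME1-P96S had the highest mean of 5 in 13, and NME1-wild-type the lowest in 4. These ranks describe features chosen for differing between the 2 lines. The comparisons with the other lines share arrays with this one, so their values are set side by side only. Called features numbered 19 (0.103%) for NME1-P96S against Parent and 6 (0.0326%) for NME1-wild-type against Parent. NME1-P96S differed from NME1-E5A in 44 features (0.239%) and from NME1-K12Q in 51 (0.277%). NME1-wild-type differed from NME1-E5A in 38 (0.207%) and from NME1-K12Q in 7 (0.0381%).

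**Figure D2:**
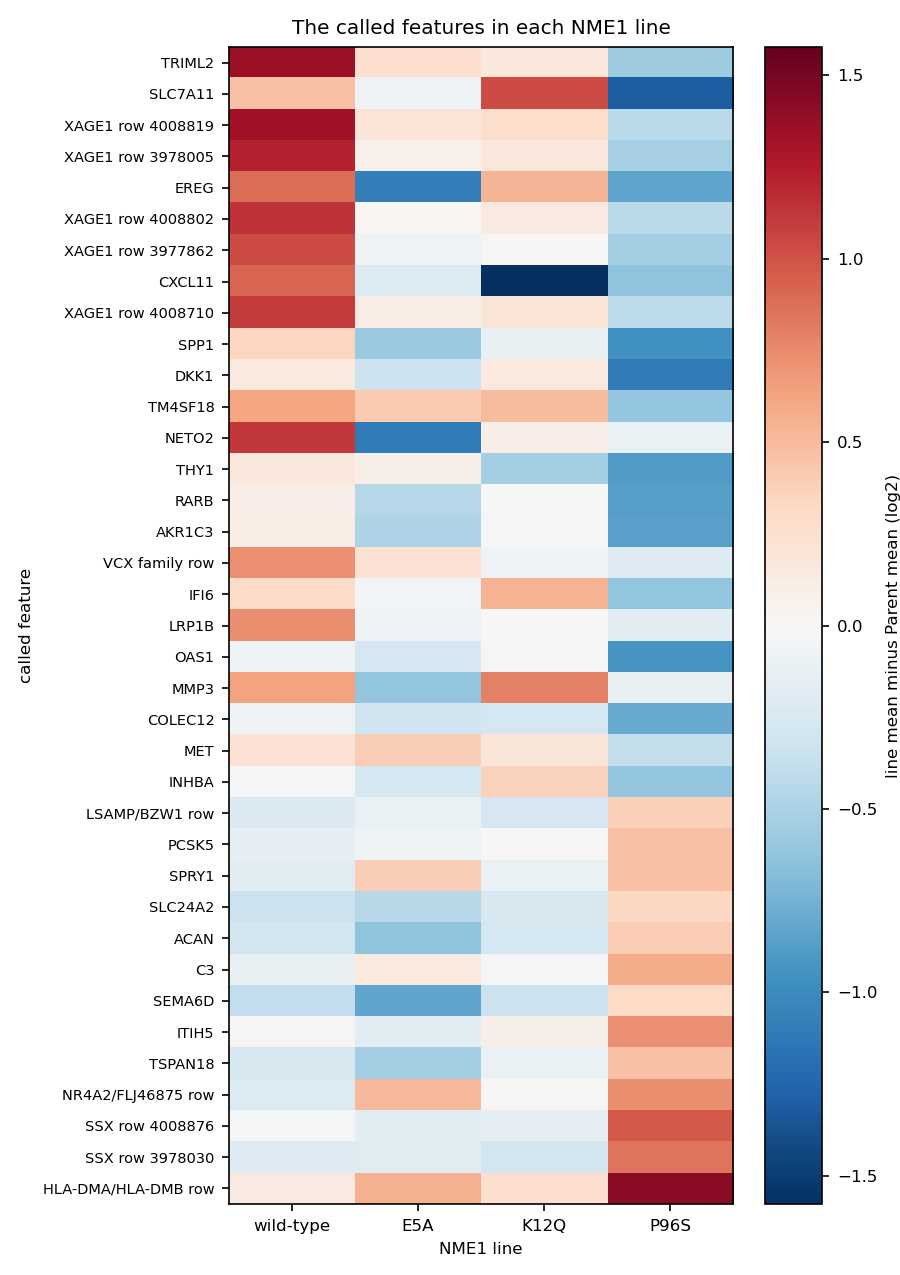
Rows are the 37 called features, columns the 4 NME1 lines, and the colour is the line mean minus the Parent mean on the log2 scale. TRIML2, NETO2 and the XAGE1 rows are reddest in the wild-type column, SLC7A11, DKK1 and THY1 are blue in the P96S column, and the SSX and HLA-DMA/HLA-DMB rows are red in the P96S column. THY1 is also below Parent in the K12Q column.

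TRIML2, a TRIM-family-like protein whose gene is reported as a p53 target, had the largest difference among the called genes. The NME1-wild-type arrays read 8.20, 7.84, 7.68 and 7.61 and the NME1-P96S arrays 6.02, 5.98, 5.79 and 5.89. Every wild-type array lay above every mutant array. The difference was −1.91 (SE 0.134, 3.76-fold, adjusted p = 1.49e-07). The Parent, NME1-E5A and NME1-K12Q means were 6.48, 6.74 and 6.65, between the 2 lines. NME1-wild-type exceeded Parent by 1.35 (adjusted p = 6.3e-05), while NME1-P96S differed from Parent by −0.56 (adjusted p = 0.265).

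NETO2, an auxiliary subunit of kainate-type glutamate receptors, was also highest in NME1-wild-type. It read 6.62, 6.47, 6.79 and 6.96 in NME1-wild-type and 5.58, 5.64, 5.24 and 5.55 in NME1-P96S, without overlap. The difference was −1.21 (SE 0.118, 2.31-fold, adjusted p = 1.53e-05). NME1-wild-type exceeded Parent by 1.11 (adjusted p = 9.43e-05), and NME1-P96S stood at −0.10 from Parent (adjusted p = 0.85). NME1-E5A was lower than both, at a mean of 4.50. None of the kainate receptor subunits or NETO1 was called, so 1 of the 7 measured genes of that list was, with a list median of −0.03. NETO2 is also among the genes reported to be repressed by NME1 in motility studies, a list of 9. In it NETO2 and MET, the receptor of hepatocyte growth factor, were called lower and none higher, beside 0.201% of all features called. LPAR1, a lysophosphatidic acid receptor, differed by 0.38, the growth factor PTN by −0.37 and MMP2, a gelatinase, by 0.31, none of them called, and the list median was −0.05. MET read 5.22, 5.26, 5.44 and 5.37 in NME1-wild-type and 4.61, 4.94, 4.67 and 4.66 in NME1-P96S (difference −0.60, adjusted p = 0.0428). Its call ended when any array but NME1-P96S array 2 was left out, with differences of −0.68 to −0.57 over the 8 leave-outs.

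EREG, which encodes the EGF receptor ligand epiregulin, read 8.05, 8.25, 7.67 and 7.79 in NME1-wild-type and 6.20, 5.99, 6.76 and 5.96 in NME1-P96S. The groups were separate, with a difference of −1.71 (SE 0.168, 3.27-fold, adjusted p = 1.53e-05). The mean was 5.97 in NME1-E5A, 7.06 in Parent and 7.59 in NME1-K12Q. EREG was the 1 called gene of 14 measured EGF ligands and ERBB receptors, whose median was −0.12. ERBB3, a receptor of neuregulins, differed by 0.68 without being called (adjusted p = 0.486). Of 25 measured genes of MAPK pathway output, EREG was called lower and SPRY1 higher, beside 0.201% of all features called. The list median was −0.01 beside −0.04 for all features. SPRY4, a paralogue of SPRY1, differed by 0.41, the chromatin protein HMGA2 by −0.33 and cyclin D1, CCND1, by −0.01, none of them called. SPRY1, a feedback inhibitor of receptor tyrosine kinase signalling, read 7.09, 6.82, 7.07 and 7.25 in NME1-wild-type and 7.62, 7.86, 7.62 and 7.70 in NME1-P96S. Its difference of 0.64 (adjusted p = 0.0217) was not called without NME1-wild-type array 1, 2 or 3 or NME1-P96S array 2 or 4, over a range of 0.56 to 0.71. The SPRY1 mean was 7.24 in Parent, 7.14 in NME1-K12Q and 7.63 in NME1-E5A. NME1-P96S differed from NME1-E5A by only 0.07, so the higher level was shared with that line.

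**Figure D3:**
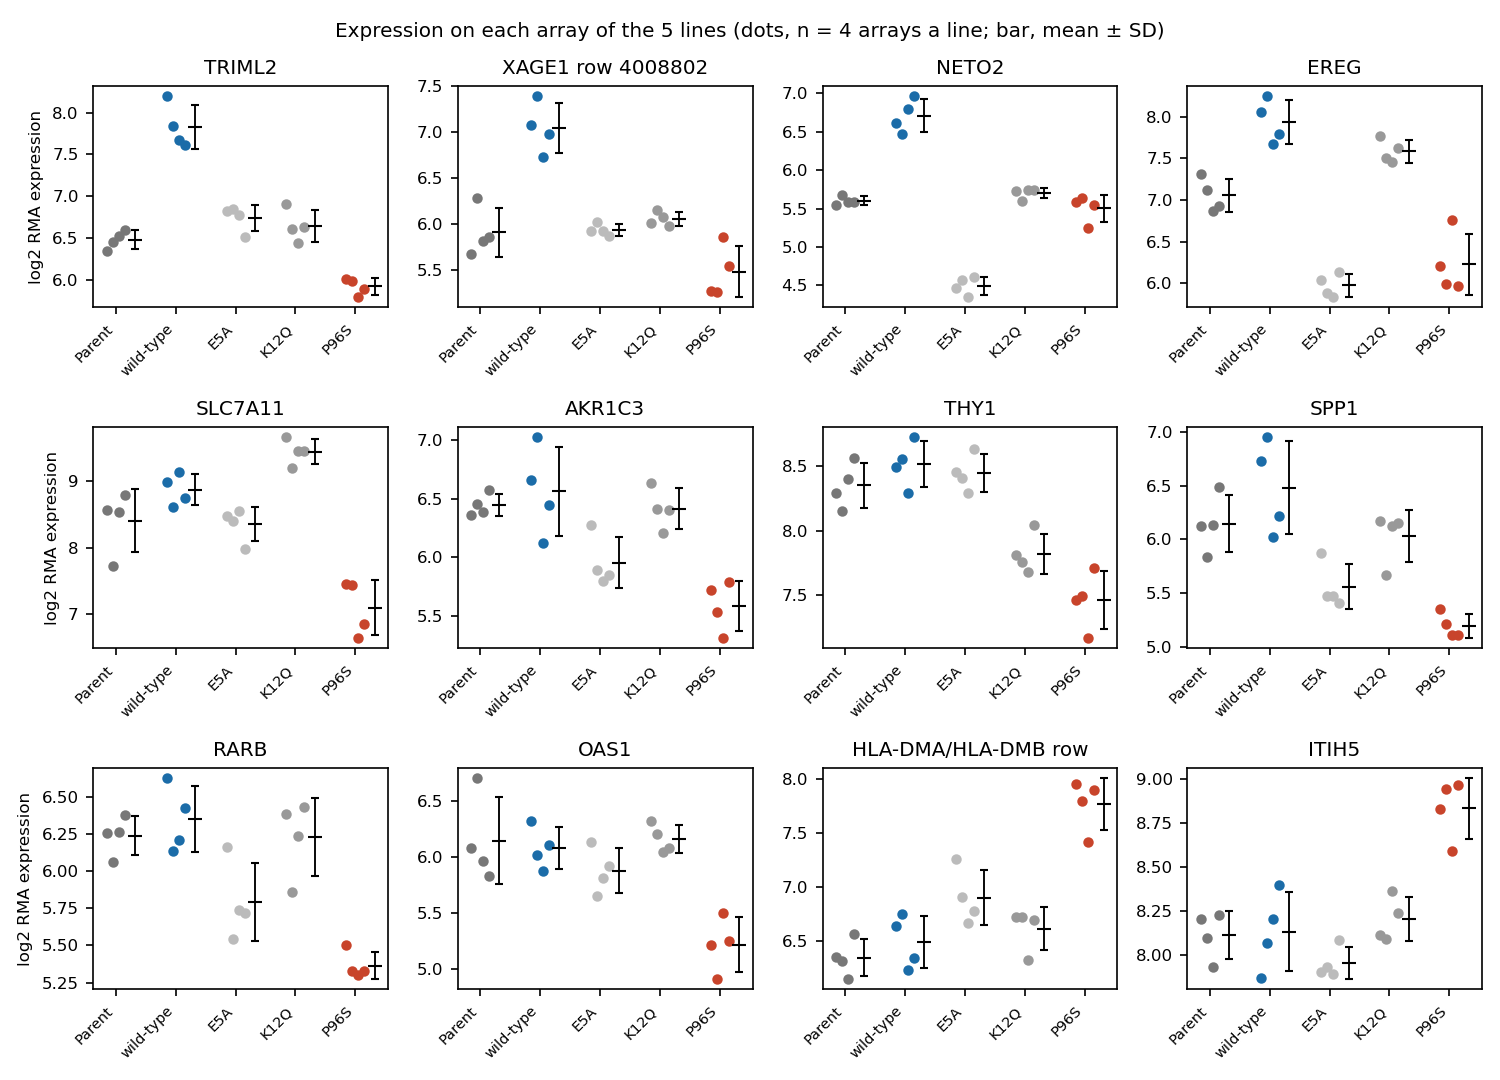
Log2 expression of 12 called features on every array of the 5 lines, with the mean ± SD of 4 arrays as a bar. TRIML2, NETO2 and the XAGE1 row are high in NME1-wild-type alone, SLC7A11 and THY1 are low in NME1-P96S, and the HLA-DMA/HLA-DMB row and ITIH5 are high in NME1-P96S. THY1 is also lower in NME1-K12Q than in Parent (means 7.82 and 8.35).

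SLC7A11 encodes the light subunit of the cystine and glutamate exchanger that supplies cystine for glutathione. It read 8.98, 8.62, 9.13 and 8.75 in NME1-wild-type and 7.45, 7.44, 6.64 and 6.86 in NME1-P96S. All NME1-P96S arrays were lower, with a difference of −1.77 (SE 0.219, 3.41-fold, adjusted p = 0.000289). NME1-P96S was also below Parent, by −1.30 (adjusted p = 0.0155), below NME1-E5A, by −1.25 (adjusted p = 0.00913), and below NME1-K12Q, by −2.34 (adjusted p = 2.26e-05). The wild-type line stood 0.47 above Parent (adjusted p = 0.997).

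SLC7A11 and AKR1C3 were the 2 called members of 23 measured targets of NRF2, the transcription factor of the antioxidant response. Over all features 0.201% were called. AKR1C3, an aldo-keto reductase that reduces steroids and prostaglandins, read 6.66, 7.02, 6.12 and 6.44 against 5.72, 5.54, 5.31 and 5.79 (difference −0.97, adjusted p = 0.0104). NME1-P96S was below Parent in AKR1C3 by −0.85 (adjusted p = 0.0495) and below NME1-K12Q by −0.83 (adjusted p = 0.0303). It differed from NME1-E5A by −0.36, not called, and the NME1-E5A mean was 5.95 against 6.44 in Parent. AKR1C genes are close copies, and a row shared by AKR1C1, AKR1C2 and AKR1C3 differed by −0.63 (adjusted p = 0.320). The AKR1C3 call ended without NME1-wild-type array 1 or 2, with differences of −1.12 to −0.82 over the 8 leave-outs. Of the 21 members not called, GCLM, a subunit of the glutathione-making ligase, differed by −0.47, heme oxygenase HMOX1 by −0.45 and sulfiredoxin SRXN1 by −0.37. The list median was −0.19, and 3 of 23 members were above 0, against 38.7% of all features. At an unadjusted p under 0.05, 4 members were lower and 0 higher, against 1.64% and 1.75% of all features. The antioxidant response core TGACNNNGC, searched on both strands in the 250 bases before each start in RefSeq (GRCh38.p14), was in 10.9% of 35116 windows and in neither of the 2 windows of AKR1C3.

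THY1, a glycosylphosphatidylinositol-anchored surface protein, read 8.49, 8.56, 8.30 and 8.73 in NME1-wild-type and 7.46, 7.5, 7.17 and 7.72 in NME1-P96S. The groups did not overlap (difference −1.06, SE 0.136, adjusted p = 0.000398), and NME1-P96S was below Parent by −0.89 (adjusted p = 0.0104). It differed from NME1-E5A by −0.99 (adjusted p = 0.000903) and from NME1-K12Q by −0.36 (adjusted p = 0.914). The NME1-K12Q mean was 7.82, against 8.35 in Parent, so low THY1 was not particular to NME1-P96S. THY1 was the 1 called gene of 26 measured integrin and focal adhesion genes, with a median of −0.01. The caveolins CAV2 and CAV1, membrane scaffold proteins, differed by −0.64 and −0.42, and ITGA2, a collagen receptor subunit, by −0.59, none of them called. THY1 is also a fibroblast marker: of 9 measured fibroblast markers it alone was called, and 0 of 9 were above 0, against 38.7% of all features. The list mean, which includes THY1 itself, was 6.06 to 6.33 on the NME1-wild-type arrays and 5.79 to 6.06 on the NME1-P96S arrays. COL3A1 differed by −0.48 and the other markers by −0.19 to −0.04. The part of these markers in the THY1 result was not tested.

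SPP1, which encodes the secreted matrix phosphoprotein osteopontin, read 6.73, 6.95, 6.02 and 6.22 in NME1-wild-type and 5.35, 5.21, 5.11 and 5.11 in NME1-P96S (difference −1.28, adjusted p = 0.00168). Among 36 measured extracellular matrix genes SPP1 was lower and ITIH5 higher, with a median of 0.04. ITIH5, a heavy chain that binds hyaluronan, read 7.87, 8.07, 8.20 and 8.40 in NME1-wild-type and 8.83, 8.94, 8.59 and 8.97 in NME1-P96S (difference 0.70, adjusted p = 0.0167). NME1-P96S exceeded Parent in ITIH5 by 0.72 (adjusted p = 0.0196). The ITIH5 call ended without NME1-wild-type array 1 or 2 or NME1-P96S array 2 or 4 (0.61 to 0.79).

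ACAN, the cartilage proteoglycan aggrecan, read 6.88, 7.22, 7.32 and 7.46 in NME1-wild-type and 7.77, 8.07, 7.88 and 7.94 in NME1-P96S (difference 0.69, adjusted p = 0.0152), and lost its call without the same 4 arrays as ITIH5 (0.58 to 0.77). MMP3, the protease stromelysin, read 6.80, 6.46, 6.33 and 6.40 against 6.08, 5.77, 5.46 and 5.71 (difference −0.75, adjusted p = 0.0205). It was the 1 called gene of 34 measured matrix proteases and inhibitors, with a median of −0.01, and its call ended without those same 4 arrays (−0.85 to −0.65) and with quantile normalisation, equal interquartile ranges or array weights. MMP8, the neutrophil collagenase, differed by 0.70 and was not called (adjusted p = 0.125).

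RARB, a nuclear receptor of retinoic acid, read 6.63, 6.14, 6.21 and 6.43 in NME1-wild-type and 5.5, 5.33, 5.30 and 5.33 in NME1-P96S. The difference was −0.98 (SE 0.151, 1.98-fold, adjusted p = 0.00325), and NME1-P96S was below Parent by −0.87 (adjusted p = 0.0185). Quantile normalisation ended the RARB call. The other 20 measured genes of retinoic acid signalling were not called, RARRES1, a retinoid-induced gene, at −0.56, RXRG, a retinoid X receptor, at 0.53 and the binding protein CRABP2 at −0.47, and the list median was 0.00.

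DKK1, a secreted inhibitor of Wnt co-receptors, read 9.93, 9.66, 9.32 and 9.12 in NME1-wild-type and 8.97, 8.13, 7.95 and 7.94 in NME1-P96S (difference −1.26, adjusted p = 0.0217). It was the 1 called gene of 32 measured Wnt ligands, receptors and antagonists, whose median was −0.13. Its call ended without NME1-wild-type array 1 or 2 or NME1-P96S array 2, 3 or 4 (−1.5 to −1.12). The Wnt receptor FZD4 passed the adjusted p at less than 1.5-fold (0.52, adjusted p = 0.028).

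INHBA, the subunit of activin A, was the 1 called gene of 30 measured TGF-beta ligands, antagonists and targets. It read 7.65, 7.69, 7.62 and 7.82 in NME1-wild-type and 7.22, 7.19, 7.0 and 7.0 in NME1-P96S (difference −0.59, adjusted p = 0.0352). The INHBA call ended when any of the 8 arrays was left out (−0.63 to −0.55). NME1-P96S was below Parent in INHBA by −0.61 (adjusted p = 0.044) and below NME1-K12Q by −0.98 (adjusted p = 0.000276). It differed from NME1-E5A by −0.33 (adjusted p = 0.638), not called. ID1, an inhibitor of basic helix-loop-helix factors and a target of BMP signals, differed by −0.72 (adjusted p = 0.0875), ID2 by −0.58, the ligand BMP2 by −0.48 and ID3 by −0.37, none of them called. At an unadjusted p under 0.05, 7 of the 30 were lower and 1 higher, against 1.64% and 1.75% of all features. The list median was −0.12.

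CXCL11, an interferon-inducible chemokine that attracts T cells through CXCR3, read 7.79, 7.68, 6.61 and 6.43 in NME1-wild-type and 5.75, 6.06, 4.94 and 5.56 in NME1-P96S (difference −1.55, SE 0.320, adjusted p = 0.047). The groups were separate but each spread over more than 1 log2 unit. The CXCL11 call was kept in 1 of the 8 leave-outs, that of NME1-wild-type array 4 (−1.78 to −1.33), and ended in 9 of the 12 other settings. NME1-K12Q had the lowest mean, 4.63. CXCL11 was the 1 called gene of 31 measured chemokines and inflammatory cytokines, with a median of −0.12.

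Interferon-stimulated genes, the antiviral genes switched on by interferon, were mostly below 0. Of 35 measured members 2 were called, both lower, and 2 were above 0. Over all features 0.201% were called and 38.7% were above 0. At an unadjusted p under 0.05, 8 members were lower and 0 higher, against 1.64% and 1.75% of all features. The list median was −0.20 beside −0.04 for all features, and it stayed between −0.25 and −0.15 over the alternatives. The list mean was 6.16 to 6.30 on the NME1-wild-type arrays, 5.86 to 6.06 on the NME1-P96S arrays and 6.11 to 6.27 on the Parent arrays, so the NME1-P96S arrays were below both.

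IFI6, an interferon-induced mitochondrial and endoplasmic reticulum protein, read 9.62, 9.39, 9.36 and 9.88 in NME1-wild-type and 8.77, 8.5, 8.41 and 8.89 in NME1-P96S (difference −0.92, adjusted p = 0.047). OAS1, a sensor of double-stranded RNA that makes oligoadenylates, read 6.33, 6.02, 5.88 and 6.11 against 5.21, 4.91, 5.5 and 5.25 (difference −0.87, adjusted p = 0.0373). Both were separate on all 8 arrays. The IFI6 call ended without any 1 of the 8 arrays (−1.0 to −0.81), and the OAS1 call held in the leave-out of NME1-P96S array 3 and in no other (−0.96 to −0.76). OAS1 was below Parent in NME1-P96S by −0.93 (adjusted p = 0.0329). IFI44L differed by −0.65 (adjusted p = 0.066), OAS2 by −0.64, XAF1 by −0.61, PARP9 by −0.52, MX1 by −0.45 and OAS3 by −0.40, none called. MX1, OAS3 and OAS2 encode antiviral effectors.

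The promoters of the 2 called interferon genes are shown because the interferon response element is the feature through which this pathway acts. They are the 250 bases before the RefSeq start, 5′ to 3′ on the gene's strand (GRCh38.p14), with matches on either strand to the interferon response motif (GAAA, any 2 bases, GAAA) in capitals. IFI6 lies at chr1:27672193-27672442 on the minus strand and OAS1 at chr12:112906712-112906961 on the plus strand.
IFI6: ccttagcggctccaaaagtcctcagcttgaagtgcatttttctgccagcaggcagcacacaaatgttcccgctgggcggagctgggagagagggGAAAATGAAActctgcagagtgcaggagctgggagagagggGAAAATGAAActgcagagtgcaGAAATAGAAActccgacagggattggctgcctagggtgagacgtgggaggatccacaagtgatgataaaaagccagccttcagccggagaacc
OAS1: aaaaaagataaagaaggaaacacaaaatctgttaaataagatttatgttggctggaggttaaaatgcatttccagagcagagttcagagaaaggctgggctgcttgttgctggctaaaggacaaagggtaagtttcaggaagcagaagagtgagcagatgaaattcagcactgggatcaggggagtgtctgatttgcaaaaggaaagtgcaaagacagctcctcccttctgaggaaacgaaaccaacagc
The IFI6 window holds 3 matches, which begin 156, 115 and 93 bases before the start, and the OAS1 window holds 0 matches to these letters. Near its end the OAS1 window does hold gaaacgaaa, whose spacer is shorter than the 2 bases searched for. The count of 0 thus does not show that the OAS1 promoter lacks an interferon response element. A match was in 3.02% of 35116 windows of the same length. A match is a description of the letters, not of a bound site.

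MHC class II molecules present peptides to CD4+ T cells, and their genes are switched on by the coactivator CIITA. HLA-DM helps to exchange the remnant of the CD74 chain for a peptide. Row 2950277, shared by HLA-DMA and HLA-DMB, read 6.64, 6.75, 6.23 and 6.34 in NME1-wild-type and 7.95, 7.80, 7.42 and 7.90 in NME1-P96S. Every mutant array was higher, and the difference was 1.28 (SE 0.160, 2.43-fold, adjusted p = 0.000308). The Parent mean was 6.34, NME1-P96S exceeded it by 1.43 (adjusted p = 0.000457), and NME1-wild-type exceeded it by 0.15 (adjusted p = 0.997).

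Of 11 class II genes with a row of their own 0 were called, and 9 were above 0, against 38.7% of all features. At an unadjusted p under 0.05, 5 were higher and 0 lower, against 1.75% and 1.64% of all features. The median was 0.41 beside −0.04 for all features, between 0.27 and 0.59 over the alternatives. CD74 differed by 0.70 (adjusted p = 0.0527), HLA-DPA1 by 0.68 (adjusted p = 0.277) and HLA-DPB1 by 0.65 (adjusted p = 0.229). CIITA read 6.18, 6.44, 6.39 and 6.41 in NME1-wild-type and 6.82, 6.96, 6.98 and 7.09 in NME1-P96S (difference 0.61, adjusted p = 0.0527), with separate groups. HLA-DMB differed by 0.51 and HLA-DRA by 0.41. CD74 and CIITA were called with 7 of the alternatives each, quantile normalisation among them. In the comparison with Parent, NME1-P96S was higher by 0.96 in CD74 (adjusted p = 0.0108) and by 1.07 in HLA-DPA1 (adjusted p = 0.0166), which are called there. HLA-DPB1 was also called against Parent (0.93, adjusted p = 0.0313). CIITA (0.51, adjusted p = 0.305) and HLA-DRA (0.855, adjusted p = 0.85) were not called against Parent. Against NME1-E5A the differences were 0.48 in CD74 (adjusted p = 0.4), 0.46 in HLA-DPA1 (adjusted p = 0.854), 0.52 in HLA-DPB1 (adjusted p = 0.497) and 0.60 in CIITA (adjusted p = 0.0545), none called. Against NME1-K12Q they were 0.855 in CD74 (adjusted p = 0.00978), 0.88 in HLA-DPA1 (adjusted p = 0.0384) and 0.91 in HLA-DPB1 (adjusted p = 0.0177), all called. CIITA was not called there (0.51, adjusted p = 0.136).

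Leukocyte markers, given beside the class II genes because leukocytes express them, had 0 of 13 called, 2 above 0 and a median of −0.08. Their list mean was 4.74 to 5.00 in NME1-wild-type and 4.42 to 5.29 in NME1-P96S, and PTPRC, the CD45 surface protein of leukocytes, was 3.18 to 3.34 and 3.06 to 3.60, so the sets overlapped. Class I genes, which present peptides to CD8+ T cells, had 0 of 13 called and a median of −0.05, with the proteasome subunit PSMB8 at −0.45 and B2M at −0.38.

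**Figure D4:**
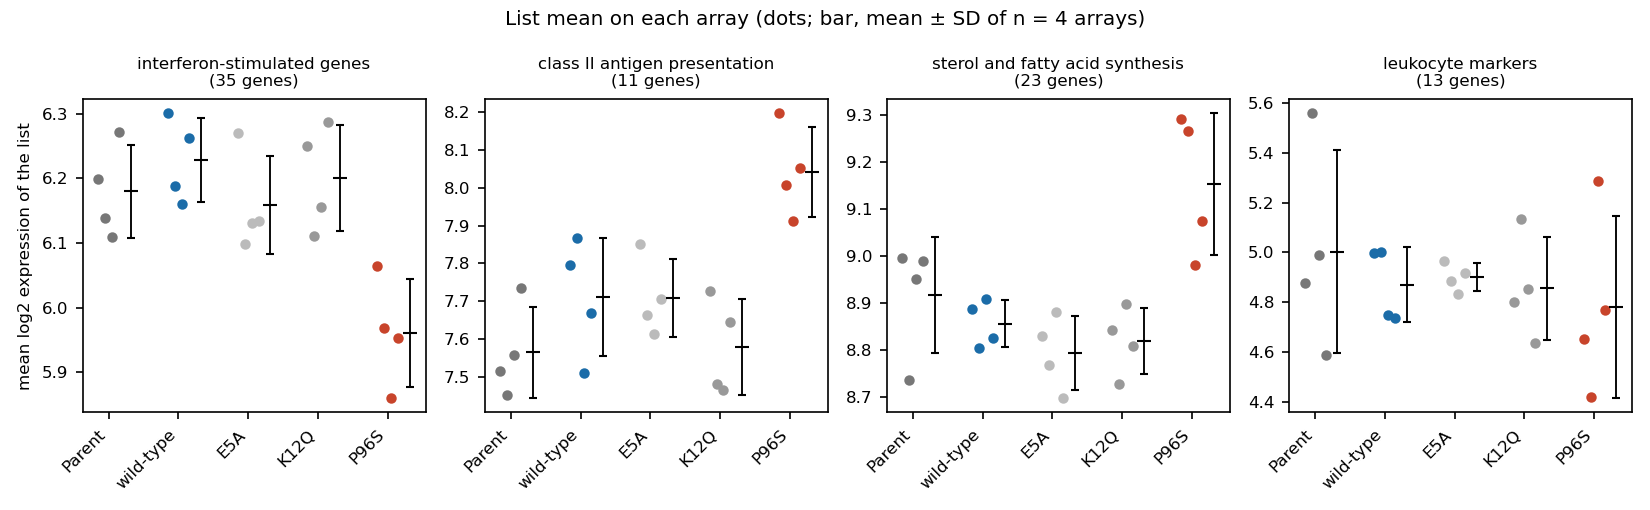
Mean log2 expression of 4 gene lists on every array of the 5 lines, with the mean ± SD of 4 arrays as a bar. The NME1-P96S arrays lie below the NME1-wild-type arrays for interferon-stimulated genes (5.86 to 6.06 against 6.16 to 6.30) and above them for class II genes (7.91 to 8.20 against 7.51 to 7.87) and sterol and fatty acid synthesis (8.98 to 9.29 against 8.80 to 8.91), while leukocyte markers overlap.

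Genes of sterol and fatty acid synthesis, the targets of SREBP transcription factors, had 0 of 23 measured members called. Of these 23, 22 were above 0, against 38.7% of all features. At an unadjusted p under 0.05, 10 were higher and 0 lower, against 1.75% and 1.64% of all features. The median was 0.32, between 0.25 and 0.38 over the alternatives, and the other 13 had an unadjusted p of 0.05 or more. DHCR7, which catalyses the last step to cholesterol, passed the adjusted p at less than 1.5-fold. It read 9.99, 10.05, 10.17 and 10.19 in NME1-wild-type and 10.66, 10.62, 10.49 and 10.60 in NME1-P96S (difference 0.49, adjusted p = 0.0266). ACSS2, which makes acetyl-CoA from acetate, differed by 0.49, the fatty acid synthase FASN by 0.46, TM7SF2, a sterol reductase, by 0.44, the desaturase FADS2 by 0.39 and mevalonate kinase MVK by 0.35. The stearoyl-CoA desaturase SCD, the most highly expressed member, differed by 0.25, not called. ELOVL6, a fatty acid elongase, was the 1 member below 0 (−0.14). The list mean was 8.80 to 8.91 on the NME1-wild-type arrays, 8.98 to 9.29 on the NME1-P96S arrays and 8.74 to 9.0 on the Parent arrays. The NME1-P96S arrays did not overlap NME1-wild-type, and only NME1-P96S array 3, at 8.98, lay within the Parent range. Averaged over the arrays of a line, NME1-P96S was highest at 9.15. Parent stood at 8.92, NME1-wild-type at 8.86, NME1-K12Q at 8.82 and NME1-E5A at 8.79.

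**Figure D5:**
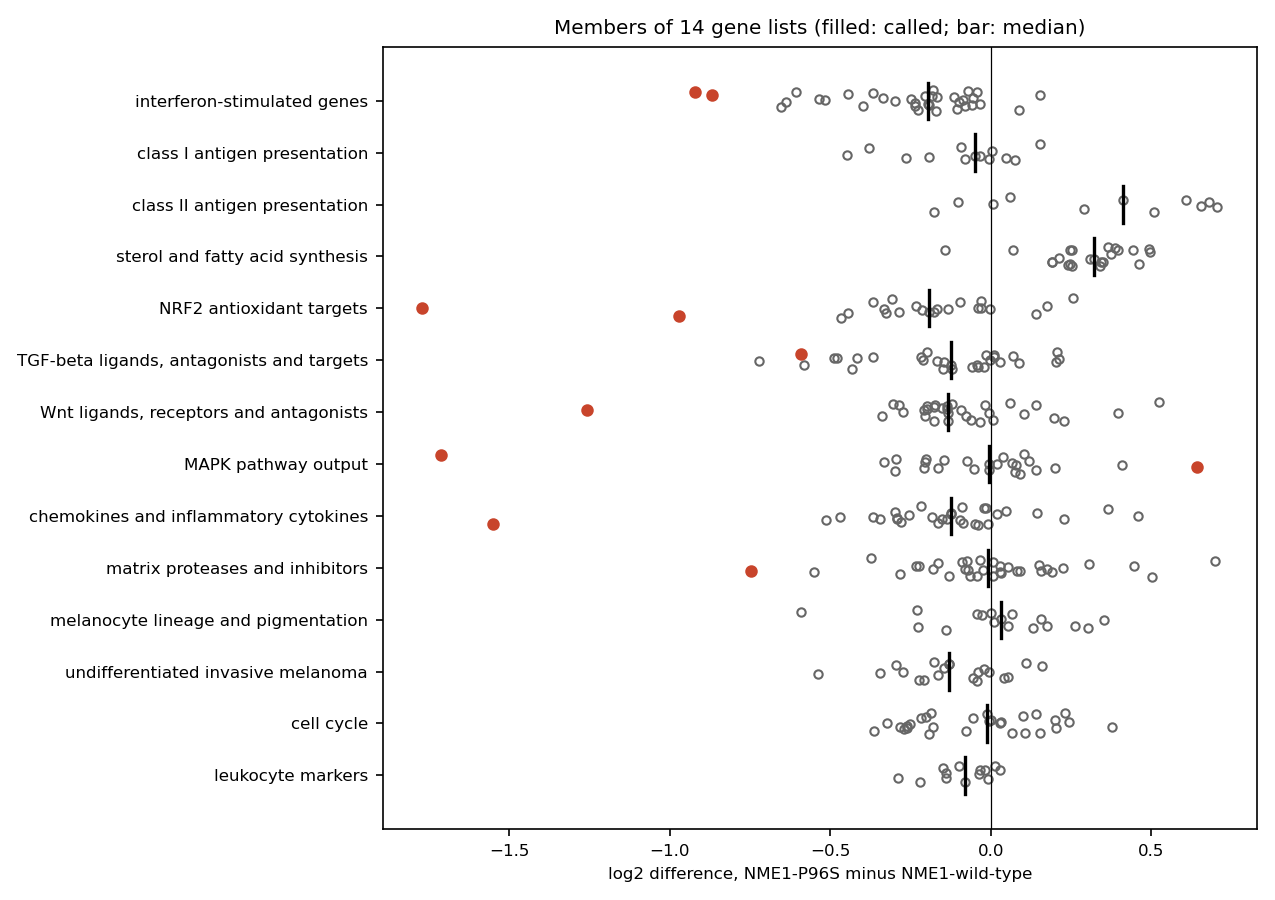
Each circle is a gene of 1 of 14 lists at its log2 difference (NME1-P96S minus NME1-wild-type), filled where called, with the list median as a bar. The medians of class II (0.41) and sterol and fatty acid synthesis (0.32) lie farthest to the right, and those of interferon-stimulated genes (−0.20) and NRF2 targets (−0.19) farthest to the left among these 14.

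Cancer-testis antigens are genes of the germ line that are often active in melanoma. Besides TRIML2, which the list includes, XAGE1 rows were lower and SSX rows higher in NME1-P96S. Of the calls, 5 came from the near-identical XAGE1 copies, so the rows 4008819, 3978005, 4008802, 3977862 and 4008710 can share RNA and are not independent. Row 4008802 read 7.08, 7.39, 6.73 and 6.98 in NME1-wild-type and 5.27, 5.26, 5.85 and 5.54 in NME1-P96S (difference −1.56, adjusted p = 1.53e-05). The 5 differences ran from −1.75 to −1.52. The Parent, NME1-E5A and NME1-K12Q means of row 4008802 were 5.91, 5.93 and 6.05, and NME1-wild-type exceeded Parent there by 1.14 (adjusted p = 0.00301).

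The SSX genes, transcriptional repressors that fuse with SS18 in synovial sarcoma, gave 2 rows that also share copies. Row 3978030 read 4.92, 4.80, 4.63 and 4.59 in NME1-wild-type and 6.04, 5.58, 5.79 and 5.74 in NME1-P96S (difference 1.05, adjusted p = 0.00459), and the low NME1-wild-type readings are not shown to be above background. Row 4008876 differed by 0.99 (adjusted p = 0.00545), and NME1-P96S exceeded Parent by 0.96 in it (adjusted p = 0.0147). A row of the VCX family differed by −0.92 (adjusted p = 0.0352), a call kept in 2 of the 8 leave-outs, those of NME1-wild-type array 3 and NME1-P96S array 3 (−1.10 to −0.78). MAGEA1 differed by −0.84 and was not called (adjusted p = 0.0818). Of the cancer-testis list 8 members had a row of their own, with a median of −0.07, and 15 were on shared rows.

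The remaining lower genes were LRP1B, COLEC12 and TM4SF18. LRP1B, an endocytic receptor of the LDL receptor family, read 4.51, 4.60, 4.60 and 4.41 in NME1-wild-type and 3.44, 3.44, 4.02 and 3.58 in NME1-P96S (difference −0.91, adjusted p = 0.00372), where NME1-P96S readings overlap those of the leukocyte marker PTPRC (3.06 to 3.60). COLEC12, a scavenger receptor, read 5.87, 5.82, 5.66 and 5.83 against 5.00, 5.07, 5.19 and 4.97 (difference −0.74, adjusted p = 0.000928), and NME1-P96S was below Parent by −0.79 (adjusted p = 0.00204). TM4SF18, a transmembrane protein, read 9.21, 9.31, 8.82 and 8.68 against 8.18, 8.08, 7.12 and 7.74 (difference −1.23, adjusted p = 0.0266), and its call ended without NME1-wild-type array 1, 2 or 3 or NME1-P96S array 3 or 4 (−1.36 to −1.01).

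The remaining higher genes had folds of 1.52 to 1.93. C3, the central complement component, read 9.79, 9.77, 10.28 and 10.36 in NME1-wild-type and 10.68, 10.90, 10.57 and 10.82 in NME1-P96S (difference 0.69, adjusted p = 0.0425). It was the 1 called gene of 14 measured complement genes, whose median was −0.07, and CFI, the protease that cleaves C3b, differed by −0.56. SEMA6D, a transmembrane semaphorin, read 6.15, 6.09, 6.50 and 6.35 against 7.07, 7.27, 6.59 and 6.94 (difference 0.70, adjusted p = 0.047), the 1 called gene of 25 measured semaphorins, plexins and neuropilins. The semaphorin receptor PLXNA2 differed by 0.45 and SEMA3B by 0.45, neither called. TSPAN18, a tetraspanin, differed by 0.72 (adjusted p = 0.0217), the exchanger SLC24A2 by 0.66 (adjusted p = 0.0445) and the proprotein convertase PCSK5 by 0.62 (adjusted p = 0.0388).

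A row of NR4A2, an orphan nuclear receptor, and FLJ46875 differed by 0.95 (adjusted p = 0.0217), and a row of LSAMP and BZW1 by 0.60 (adjusted p = 0.0133). The calls of TSPAN18, C3, SEMA6D, SLC24A2, PCSK5 and the LSAMP and BZW1 row all ended without NME1-wild-type array 2 or NME1-P96S array 2 or 4, and the 5 named genes also without NME1-wild-type array 1. The C3, SEMA6D, SLC24A2, PCSK5 and LSAMP and BZW1 calls ended without NME1-P96S array 1, and those of TSPAN18, SEMA6D, SLC24A2, PCSK5 and the LSAMP and BZW1 row without NME1-wild-type array 3. SEMA6D and SLC24A2 also lost their calls without NME1-wild-type array 4. Over the 8 leave-outs TSPAN18 ran from 0.65 to 0.83, C3 from 0.60 to 0.80, SEMA6D from 0.60 to 0.82, SLC24A2 from 0.60 to 0.81, PCSK5 from 0.55 to 0.74 and the LSAMP and BZW1 row from 0.56 to 0.66. The NR4A2 row ran from 0.86 to 1.07 and lost its call without NME1-wild-type array 1, 3 or 4 or NME1-P96S array 1 or 2.

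Markers of the melanocyte lineage had 0 of 17 called and a median of 0.03. SOX10, the neural crest factor kept in melanoma, was high in both lines, at 9.26 to 9.45 in NME1-wild-type and 9.33 to 9.66 in NME1-P96S. The pigment cell antigens MLANA, at 3.39 to 3.84 and 3.31 to 3.87, and PMEL, at 4.53 to 4.71 and 4.38 to 5.04, were low in both lines, and MITF, the lineage regulator, was 5.61 to 5.95 and 5.52 to 5.64. The melanin enzyme TYRP1 differed by −0.59 without being called (adjusted p = 0.430). Genes of the undifferentiated invasive melanoma state had 0 of 20 called and a median of −0.13. Endothelial markers had 0 of 8 called and a median of −0.06, and keratinocyte and epithelial markers 0 of 9 and −0.04.

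Cell cycle genes had 0 of 29 and a median of −0.01, and nucleotide synthesis and salvage, the pathway closest to the NME1 kinase, 0 of 33 and −0.07. Glycolysis had 0 of 21 and 0.04, with hexokinase HK2 at 0.52, and the hypoxia response 0 of 23 and −0.05, with the collagen hydroxylase P4HA1 at 0.52 and EPAS1, the HIF-2 alpha subunit, at −0.48. Amino acid and unfolded protein stress genes had 0 of 26 and 0.01. Cadherins and mesenchymal transition regulators had 0 of 15 and −0.02. Metastasis suppressors other than NME1 had 0 of 14 and 0.05, with NDRG1 at 0.42. Of 21 measured p53 targets and regulators TRIML2 was the 1 call, with a median of −0.06.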

How the data were processed

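Gene-level values of 20 arrays were used. They are log2 expression on the deposited scale, normalised by robust multi-array averaging (RMA) in R by the authors, per the series' design text; limma is named in the submitters' processing notes, and versions and genome build are not given in the sources used here. Of 18708 rows, 14735 carried 1 gene symbol, 2873 several and 1100 were unlisted. The row with the highest mean stood for a gene, so 324 rows were left out. Array spread was checked from medians and interquartile ranges. limma 3.58.1 in R 4.3.3 (lmFit, eBayes) fitted a mean per line to all 20 arrays with 15 residual degrees of freedom. The fit was tested on simulated data.

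Members and lists were chosen with earlier results of these data known. Genes named were NME family members, the 15 called genes with the largest difference in each direction (filled to 10 by p), and for each list its called members and, from the 3 largest and the 2 most highly expressed others, those printed (the rest are covered by counts and medians). COLEC12, the rows of several genes, ELOVL6, CIITA, HLA-DMB, HLA-DRA, MX1, OAS3, BMP2, ID3, FADS2, TM7SF2, MVK, PTPRC, PMEL, MLANA and MITF were named after their values were seen. Replicate numbers were not taken as pairs, although the deviations of arrays 1 and 4 correlated best within their own number. Alternatives were other normalisations, covariates, array weights, filters, tests and leaving out each array. Protein sequences were not used here.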

Additional observations from a re-analysis of the deposited data

Results flagged for a closer look

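In 23 of 410 groups of 4 arrays (5.61%) the highest or lowest array stood apart from the others by more than 0.829 of the group's range. Chance alone would mark about 1 group in 20. Of these arrays 7 were NME1-P96S array 3, 6 NME1-wild-type array 2, 4 NME1-wild-type array 1, and NME1-P96S arrays 1, 2 and 4 had 2 each. On NME1-P96S array 3 the log2 values were 6.18 for SLC24A2, 3.32 for NME8, 6.10 for COL3A1, 5.08 for CDH6, 10.48 for SNAI2, 4.22 for ACKR4 and 7.43 for CTAG2. On NME1-wild-type array 2 they were 10.14 for PDIA3, 11.13 for FTL, 10.555 for HSPA5, 12.73 for ENO1, 9.535 for GUK1 and 6.16 for MX1. On NME1-wild-type array 1 they were 6.76 for FZD4, 6.73 for PLXNA2, 9.11 for CCNB2 and 6.93 for KRT8. On NME1-P96S array 1 they were 5.5 for RARB and 7.005 for LUM. On NME1-P96S array 2 they were 9.50 for NME4 and 4.94 for MET. On NME1-P96S array 4 they were 10.38 for CD82 and 5.47 for the SSX row 4008876. LUM and CCNB2 were highest on array 1 of every line, at 6.67 to 7.14 for LUM and 8.55 to 9.14 for CCNB2. Their high readings thus recurred with the replicate number and were not particular to the flagged array. The cause was not tested.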

How the results depend on the processing

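The 37 calls (13 higher, 24 lower) became 75 (23 and 52) when a covariate held each array's interquartile range, 97 (45 and 52) without the 3 narrowest arrays, 160 (61 and 99) with array weights, 11 (3 and 8) when only the 8 arrays were fitted and 7 (0 and 7) when limma's treat tested against 1.5-fold, where 24 features had an unadjusted p under 0.05. Leaving out 1 array gave 18 to 43 calls, 3 to 20 higher and 14 to 23 lower. The remaining settings gave 29 to 42 calls. The share of calls that were lower, 64.9%, was 53.6% without the 3 narrowest arrays, 58.3% with quantile normalisation or the filter on low values, 72.7% with the 8 arrays alone, 100% with treat and 53.5% to 85.0% over the leave-outs. The NME1 row's difference of −0.03 was 0.007 with quantile normalisation and ran from −0.062 to 0.016 over the leave-outs. Quantile normalisation moved the median of all features from −0.04 to 0.00. The medians of the lists for class II, sterol and fatty acid synthesis, interferon, NRF2, TGF-beta, Wnt, EGF and ERBB, chemokine, complement, class I, matrix, fibroblast, invasive melanoma and NME family genes kept their sign in every setting, and the medians of the other lists crossed 0 in at least 1. Over 735 pairs of a called feature and a setting, the call held in 530, was lost in 205 and reversed in 0. Deviations of arrays with the same replicate number correlated at 0.277, −0.424, −0.133 and 0.337, so the numbers were not taken as pairs. With the number as a replicate block there were 42 calls, 34 of them among the 37, and each array correlated best with its own number for numbers 1 and 4 of the 4. The causes were not tested.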
